A study of Mus musculus with 9 samples.

Results

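The 10 genes described here encode ITAM adaptors, receptors of natural killer (NK) cells that trigger or tune killing, and the kinases that read their signals. They are the adaptor genes Fcer1g, Tyrobp, Hcst and Cd247, the receptor genes Ncr1, Fcgr3, Cd226 and Cd96, and the kinase genes Syk and Zap70. They were chosen by symbol, and every probe set of the array annotated to 1 of these genes alone was taken, which gave 18 of the 45101 probe sets and 10 of the 18193 genes with such a probe set. The 9 arrays measured RNA from iNKT cells (invariant natural killer T cells, which carry a nearly fixed receptor for lipids on CD1d). The cells were sorted from thymi, and the animals were 8 to 12 weeks old. Of these, 5 were Utx wildtype (WT1 to WT5) and 4 Utx knockout (KO1 to KO4), each labelled a biological replicate. Utx, the product of Kdm6a, is a demethylase that takes a repressive mark off histone H3, and the series asks what its loss does to the gene programme of iNKT cells. The sources used here do not say which cells carry the deletion, what drove it or which strain was used.

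An ITAM is a short stretch with a pair of tyrosines in the tail of an adaptor. Kinases of the Src family phosphorylate it, and Syk or Zap70 then docks there through paired SH2 domains and passes the signal on. The Fc receptor gamma chain (Fcer1g), DAP12 (Tyrobp) and CD3 zeta (Cd247) carry ITAMs, whereas DAP10 (Hcst) carries a motif that recruits phosphoinositide 3-kinase. NK receptors without a signalling tail of their own pair with these adaptors in the membrane. iNKT cells signal through the T cell receptor, with CD3 zeta and Zap70, and those of the NKT1 type also carry NK receptors.

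The titles name 3 batches: batch 1 holds WT1 and KO1, batch 2 holds WT2 with KO2, KO3 and KO4, and batch 3 holds WT3, WT4 and WT5. Differences below are knockout minus wildtype on the log2 scale from limma with batch as a factor, so they are taken within batches 1 and 2. A probe set was called when its Benjamini-Hochberg adjusted p over all 33789 probe sets tested was under 0.05. A gene is counted by its probe set of highest mean, here its leading probe set. Levels are log2 values, and a level is compared only between arrays for the same probe set. All 12 iNKT genes listed, among them Cd3e and Zbtb16, lay above the filter level of 4.54. So did 14524 of all 18193 genes, so this alone says little about the labelled cell type. On the leading Kdm6a probe set, wildtype arrays read 9.79 to 10.15 and knockout arrays 9.62 to 10.07. None of the 4 Kdm6a probe sets was called by limma (adjusted p 0.133 to 0.976). The 1 with an unadjusted p under 0.05 was higher in knockout cells, by 0.52, with no overlap between the groups. The sources used here do not say whether any lies in the deleted part, so Kdm6a does not check the labels. Macrophage, dendritic cell, B cell and double-positive thymocyte markers were at higher summed levels on every knockout array than on any wildtype array, as described further on.

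Fcer1g fell and Syk rose in knockout cells, and the other 8 genes gave no call on their leading probe set. Thus 1 of the 10 genes was called lower, against 2.78% of all genes tested, and 1 was called higher, against 6.7%. In either direction that makes 2 of the 10, against 9.48%. Of the 18 probe sets, 1 was called lower (3.17% of all probe sets tested) and 3 higher (5.33%), or 4 in all (8.5%). At an unadjusted p under 0.05 there were 7 of the 16 probe sets tested, against 29.3% of all. Of the 10 genes, 9 passed the filter on low values and were tested, all but Ncr1. The median difference of these 9 was -0.34, beside 0.11 over all genes tested. Every knockout array lay below every wildtype array for 4 genes (Fcer1g, Hcst, Cd226 and Cd96), as for 12.7% of all genes, and above for Syk, as for 22.2% of all genes.

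**Figure D1:**
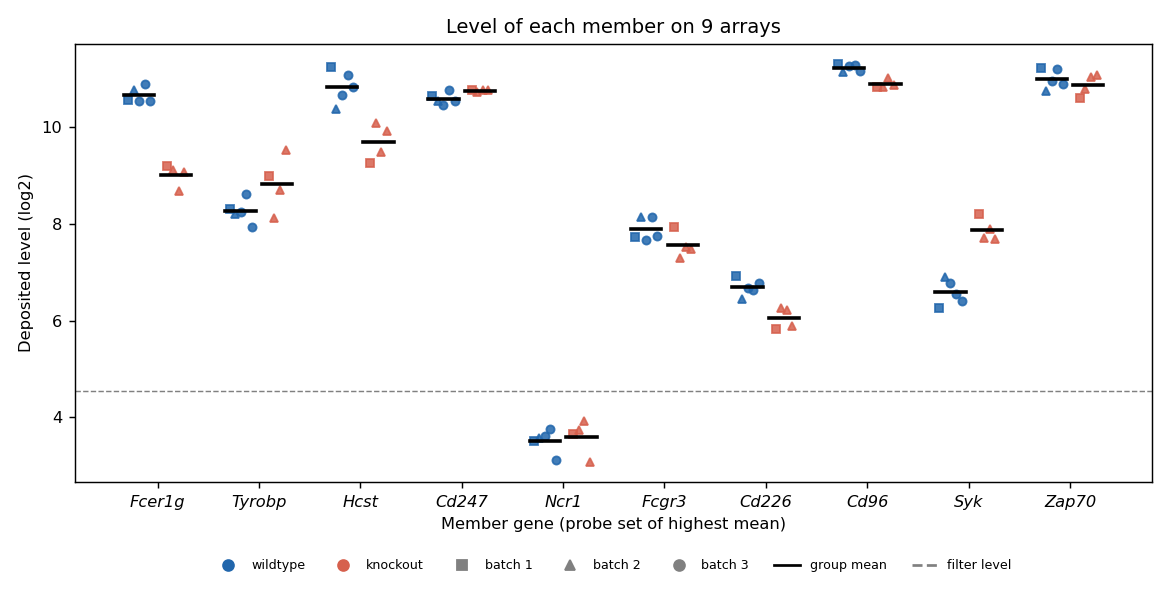
Deposited log2 level (vertical axis) of the leading probe set of each member gene (horizontal axis), 1 point per array, with wildtype in blue, knockout in red, the marker shape giving the batch, black bars the group means and the dashed line the filter level of 4.54. Fcer1g (knockout 8.68 to 9.21, wildtype 10.54 to 10.90) and Syk (knockout 7.69 to 8.21, wildtype 6.27 to 6.90) separate the genotypes in opposite directions, and Ncr1 lies below the filter level on all arrays.

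Among the adaptors, Fcer1g had the largest difference. It encodes the gamma chain that Fc receptors and several NK receptors need to signal and to reach the surface. The wildtype arrays WT1 to WT5 read 10.56, 10.76, 10.54, 10.90 and 10.55, and the knockout arrays KO1 to KO4 read 9.21, 9.11, 8.68 and 9.07. The groups did not overlap, and the gap between them was wider than the whole spread within either. The level went from 10.66 ± 0.17 (mean ± SD, n = 5) to 9.02 ± 0.23 (n = 4), a 3.08-fold fall (log2 difference -1.62, SE 0.22, adjusted p = 0.00626 by limma). The difference of KO1 from WT1 was -1.35, and those of the knockout arrays of batch 2 from WT2 were -1.65, -2.08 and -1.69. Without WT2, which leaves only the pair of batch 1 to set the difference, the call ended (-1.35, adjusted p = 0.0632).

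Hcst encodes DAP10, the adaptor of the activating receptor NKG2D. Arrays WT1 to WT5 read 11.24, 10.38, 10.68, 11.08 and 10.82, and KO1 to KO4 read 9.27, 10.08, 9.50 and 9.91. All knockout arrays were below all wildtype arrays, with KO2 the nearest to the wildtype range and WT2 the nearest to the knockout range. The wildtype mean was 10.84 ± 0.34 (SD, n = 5) and the knockout mean 9.69 ± 0.37 (SD, n = 4), with a difference of -1.12 (SE 0.32) that missed the threshold (adjusted p = 0.0616 by limma). It was -1.97 in batch 1 and -0.55 in batch 2. The difference passed without WT2 (-1.97, adjusted p = 0.0239), without KO2 (-1.23, adjusted p = 0.0458) and after another quantile normalization (-1.34, adjusted p = 0.0309), and without WT1 or KO1 it was -0.55 (adjusted p = 0.223 and 0.222).

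Tyrobp encodes DAP12, the ITAM adaptor of activating Ly49 receptors and of many myeloid receptors, and in the RefSeq gene table it is the immediate neighbour of Hcst on chromosome 7. Its wildtype arrays read 8.30, 8.20, 8.24, 8.63 and 7.94, and its knockout arrays 8.99, 8.11, 8.70 and 9.52. KO4 was the highest array and KO2 lay within the wildtype range, so the groups overlapped. The knockout SD of 0.59 was the widest among the leading probe sets (wildtype SD 0.25). The difference of 0.62 was not called (95% interval -0.21 to 1.45, adjusted p = 0.292 by limma). In batch 2 the knockout arrays differed from WT2 by -0.09, 0.49 and 1.32. From highest to lowest, the knockout arrays for Tyrobp were KO4, KO1, KO3 and KO2. Their summed macrophage markers had the same order (11.83, 11.80, 11.29 and 11.05). The wildtype arrays did not share it, with WT4 highest for Tyrobp (8.63) and WT2 highest for the summed markers (10.18). The part of such cells in this spread was not tested.

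Cd247 encodes CD3 zeta, which carries several ITAMs and serves the T cell receptor. Its 4 probe sets did not move alike. The leading one read 10.65, 10.54, 10.47, 10.77 and 10.54 in wildtype and 10.77, 10.73, 10.78 and 10.77 in knockout arrays (difference 0.17, 95% interval -0.20 to 0.55, adjusted p = 0.513 by limma). The knockout arrays were almost equal there and sat at the top of the wildtype range. The probe set 1452539_a_at had a difference of -0.06 (95% interval -0.59 to 0.48).

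Another Cd247 probe set, 1420716_at, was called higher. It read 8.84, 8.22, 8.62, 8.73 and 8.31 in wildtype and 9.26, 9.47, 9.62 and 9.69 in knockout arrays, without overlap (difference 0.99, SE 0.24, adjusted p = 0.0408 by limma). The fourth, 1426079_at, lay on the same side (0.88, 95% interval 0.05 to 1.71, adjusted p = 0.15) and its groups overlapped. The call of 1420716_at ended when any array but WT1 or KO1 was left out, with a value of 0.42 without WT2 (adjusted p 0.0508 to 0.656), and after another quantile normalization (0.72, adjusted p = 0.0540). The sources used here do not say which transcripts of Cd247 each probe set reads.

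**Figure D2:**
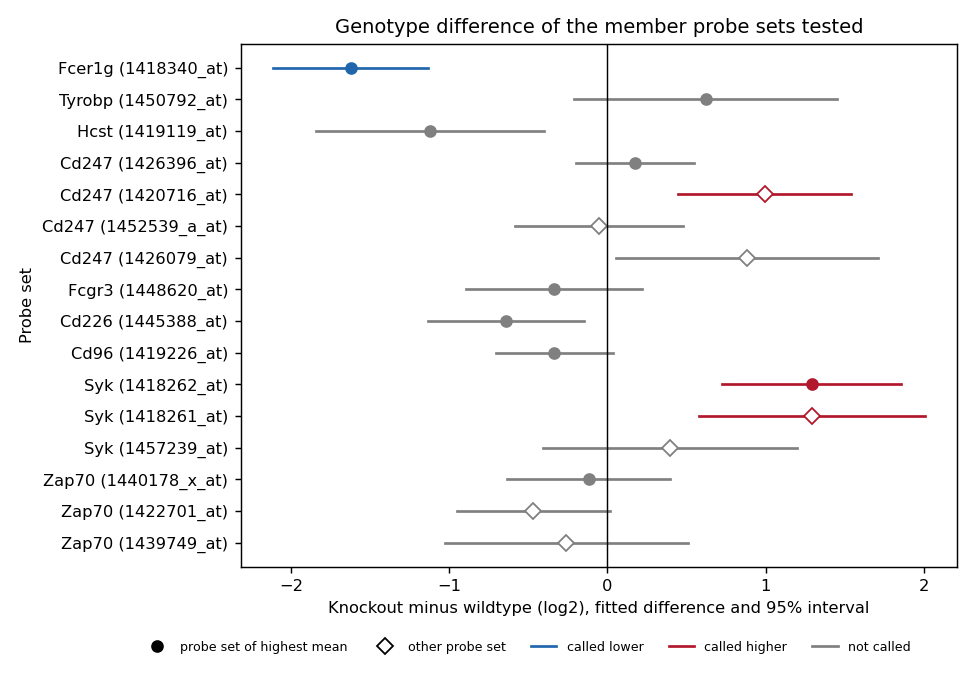
Fitted log2 difference, knockout minus wildtype (horizontal axis), with its 95% interval for the 16 member probe sets tested (vertical axis); filled circles are leading probe sets, open diamonds the others, blue called lower, red called higher and grey not called. The intervals of Fcer1g (-2.11 to -1.14) and the leading Syk probe set (0.72 to 1.86) lie on opposite sides of 0. Some probe sets of Cd247 and of Syk are called and others are not, while every Zap70 interval includes 0.

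Fcer1g and Hcst were the adaptor genes whose knockout arrays all lay below the wildtype arrays, and the 250 bases before their annotated starts are shown for that reason. They come from the RefSeq promoter table (GRCm38.p6), are written on the gene's own strand from 5′ to 3′ and end at the base before the start. Capitals mark the letters AGGAAG, a core bound by Ets factors, which were searched on both strands. Fcer1g is chr1:171234350-171234599 on the minus strand and Hcst chr7:30419855-30420104 on the minus strand.
Fcer1g: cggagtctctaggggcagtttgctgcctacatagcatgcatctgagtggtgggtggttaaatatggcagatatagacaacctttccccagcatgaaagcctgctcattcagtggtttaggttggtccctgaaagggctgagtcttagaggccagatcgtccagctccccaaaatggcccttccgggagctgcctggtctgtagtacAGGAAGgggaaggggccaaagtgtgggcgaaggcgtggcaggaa
Hcst: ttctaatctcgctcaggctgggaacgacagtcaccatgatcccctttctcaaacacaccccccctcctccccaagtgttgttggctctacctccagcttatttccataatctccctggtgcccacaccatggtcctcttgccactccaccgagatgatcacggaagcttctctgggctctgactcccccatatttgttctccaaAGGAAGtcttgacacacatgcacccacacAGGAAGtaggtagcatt

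The Ets letters begin 44 bases before the start of Fcer1g, and 46 and 17 bases before that of Hcst. Over all 32851 windows of this length in the table, 29.5% held AGGAAG on either strand. The T-box core letters TCACAC, in 12.3% of windows, and the Runx letters TGTGGT, in 14.0%, were searched too and are not in either window. Of the 8 members with a window in the table, 5 held AGGAAG before at least 1 of their annotated starts (Fcer1g, Hcst, Cd247, Fcgr3 and Zap70), compared with 32.3% of all 27025 genes. The Runx letters were found for Ncr1, Cd96 and Zap70, and TCACAC for Ncr1 alone among these 8. The printed windows hold AGGAAG alone of the letters searched, so hits of different motifs could not overlap there. These matches describe the sequence and were not tested for binding.

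None of the 4 receptor genes was called by limma, and 1, Cd226, had an unadjusted p under 0.05. Ncr1 encodes NKp46, a receptor of NK cells and innate lymphoid cells that signals through the Fc receptor gamma chain and CD3 zeta. Its probe set read 3.50, 3.57, 3.62, 3.75 and 3.12 in wildtype and 3.66, 3.73, 3.92 and 3.07 in knockout arrays. All 9 values lay below the filter level, so Ncr1 was not tested, and no level above background is shown for it in either genotype. Eomes, an NK cell transcription factor, was tested and not called (5.19 ± 0.18 in wildtype and 5.72 ± 0.20 in knockout arrays, SD, n = 5 and 4, difference 0.53, adjusted p = 0.139 by limma).

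Fcgr3 encodes the low-affinity IgG receptor CD16 of NK and myeloid cells, which signals through Fcer1g. Wildtype arrays read 7.73, 8.15, 7.68, 8.15 and 7.76 and knockout arrays 7.94, 7.30, 7.52 and 7.49. KO1 lay inside the wildtype range and the other knockout arrays below it. The difference was -0.34 (95% interval -0.90 to 0.22, adjusted p = 0.386 by limma), with 0.22 in batch 1 and -0.71 in batch 2, so the batches gave opposite signs. It turned to 0.22 without WT2.

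Cd226 encodes DNAM-1, an activating receptor for the nectin-like protein CD155. Its levels were 6.93, 6.45, 6.67, 6.63 and 6.79 in wildtype and 5.83, 6.26, 6.22 and 5.88 in knockout arrays, with no overlap. The difference of -0.64 (SE 0.22) was not called (95% interval -1.13 to -0.15, adjusted p = 0.0966 by limma). It was -1.10 in batch 1 and -0.33 in batch 2, and KO2 was the knockout array nearest to WT2 (6.26 and 6.45).

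Cd96 encodes a receptor of the same family that competes for CD155. The wildtype arrays read 11.31, 11.14, 11.26, 11.29 and 11.16, and the knockout arrays 10.82, 10.84, 11.02 and 10.87. The groups were narrow (SD 0.08 and 0.09) and did not overlap. Even so the difference of -0.34 was small beside its interval (-0.71 to 0.03) and was not called (adjusted p = 0.204 by limma). Of the other genes of this receptor system with a probe set, 6 were tested and 0 were called by limma, against 9.48% of all genes tested. None had an unadjusted p under 0.05. The median difference of these 6 was 0.14, beside 0.11 over all genes tested, with 3 negative and 3 positive. The Cd155 gene itself, Pvr, had a difference of -0.06 (95% interval -0.61 to 0.50), and Crtam, a receptor for Cadm1, -0.57 (-1.42 to 0.28).

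Of the kinases, Syk rose. Syk is the ITAM kinase of B cells, myeloid cells and NK cells, and it is also active in immature thymocytes. Its leading probe set, 1418262_at, read 6.27, 6.90, 6.79, 6.56 and 6.41 in wildtype and 8.21, 7.71, 7.89 and 7.69 in knockout arrays. The lowest knockout array was above the highest wildtype array, and KO1, of batch 1, was the highest of all. The mean went from 6.59 ± 0.26 (SD, n = 5) to 7.87 ± 0.24 (n = 4), a 2.45-fold rise (log2 difference 1.29, SE 0.25, adjusted p = 0.0197 by limma). It was 1.94 in batch 1 and 0.86 in batch 2.

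The second Syk probe set, 1418261_at, gave a like value. Its wildtype arrays read 6.02, 6.81, 6.53, 6.53 and 6.23 and its knockout arrays 8.12, 7.17, 7.69 and 7.83 (difference 1.29, SE 0.31, adjusted p = 0.0411 by limma). The third, 1457239_at, overlapped between the groups (0.40, 95% interval -0.41 to 1.20), and the fourth, 1425797_a_at, lay below the filter level on all arrays, at 3.36 to 3.79 in wildtype and 3.68 to 4.23 in knockout cells. The call of the leading probe set ended without WT1 or KO1 (0.86, adjusted p = 0.0516 and 0.0514) and without the 3 wildtype arrays of batch 3 (1.29, adjusted p = 0.0668). That of 1418261_at ended when any array but WT2 or KO2 was left out (adjusted p 0.0633 to 0.124), with a value of 0.75 without WT1 or KO1, and after another quantile normalization (1.16, adjusted p = 0.0526). On the same knockout arrays the summed levels of B cell, macrophage and double-positive thymocyte markers were higher. Of 10 B cell markers only 2 were called, Cd79a and Cd79b, and 5 overlapped between the groups. The part of such cells in the rise of Syk was not tested.

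Zap70, the kinase of the T cell receptor and of CD3 zeta, gave no call on any of its 3 probe sets. The leading one carries the suffix _x_at, which marks probe sets whose probes can match other sequences. It read 11.24, 10.76, 10.95, 11.21 and 10.89 in wildtype and 10.62, 10.79, 11.05 and 11.08 in knockout arrays, with overlap (difference -0.12, 95% interval -0.63 to 0.39, adjusted p = 0.761 by limma). It was -0.62 in batch 1 and 0.22 in batch 2, and 0.22 without WT1 or KO1. The probe set 1422701_at read 10.81, 10.50, 10.54, 10.92 and 10.51 in wildtype and 10.08, 10.29, 9.96 and 10.37 in knockout arrays. There the groups did not overlap, yet the difference of -0.47 (95% interval -0.95 to 0.01) missed the threshold (adjusted p = 0.181). For the third, 1439749_at, the difference was -0.26 (95% interval -1.03 to 0.51).

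**Figure D3:**
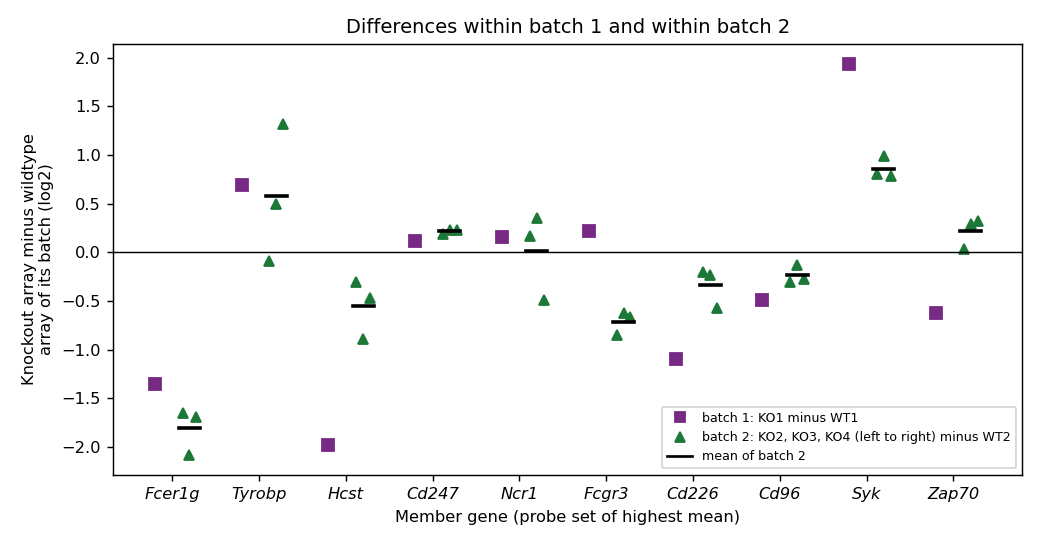
Log2 difference of each knockout array from the wildtype array of its batch (vertical axis) for the leading probe set of each member (horizontal axis): squares are KO1 minus WT1 (batch 1), triangles KO2, KO3 and KO4 minus WT2 (batch 2, left to right) and black bars the mean of batch 2. Fcer1g is negative and Syk positive for all 4 knockout arrays, whereas Fcgr3 and Zap70 have opposite signs in batch 1 (0.22 and -0.62) and batch 2 (-0.71 and 0.22).

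The size of the difference was uneven between the batches. Of the 10 genes, 8 had the same sign in both, all but Fcgr3 and Zap70, beside 9487 of all 14524 genes tested. Ncr1, which lay below the filter level, is among the 8. Hcst and Cd226 were lower and Syk higher by more in batch 1, the pair of WT1 and KO1, and Fcer1g was lower by more in batch 2. A limma test of whether the genotype difference varied between batches 1 and 2 called 0 of the 16 member probe sets (lowest adjusted p = 0.304), against 0.0207% of all, while 6 had an unadjusted p under 0.05, or 37.5%, beside 12.6% of all probe sets. Those 6 were Hcst, the called Cd247 probe set, Fcgr3, both called Syk probe sets and the Zap70 probe set 1439749_at. Batch 1 holds 1 array per genotype, so its difference has no replicate check. Across all probe sets, the deviations of WT1 and KO1 from their genotype means ran opposite to each other (r = -0.91, a description), as deviations nearly cancelled within each batch of the deposited table.

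By the root mean square difference of centred log2 levels over the 9 arrays, the genes most like Fcer1g were 2310001H17Rik (0.16), Gab3 (0.20) and Elovl7 (0.20), out of 14515 genes compared. Those most like Syk were Dtl (0.12), Cenpm (0.12) and Fbxo5 (0.12). Such likeness is mostly set by the gap between the genotypes, and it is a description only.

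The receptors known to pair with Fcer1g, Tyrobp or Hcst, listed with other Fc and NK receptors, moved both ways. Of 25 with a probe set, 17 were tested, 3 were called lower and 2 higher, with a median of -0.14. The shares over all genes tested were 2.78% lower and 6.7% higher, with a median of 0.11. Klrk1, which encodes NKG2D, the receptor of DAP10, fell (-2.62, SE 0.41, adjusted p = 0.0102 by limma), as did the SLAM family receptors Cd244a (-1.49) and Slamf7 (-1.28). Klra8, which encodes Ly49H, a receptor of DAP12, rose (1.84, SE 0.26, adjusted p = 0.00735). The other called higher was Clec7a, the beta-glucan receptor of myeloid cells (1.94, adjusted p = 0.0167). Its wildtype mean of 4.47 lay below the filter level, so it was tested only because its knockout arrays were high, and its call supports nothing here. Klra genes are close relatives, so the Klra8 probe set may read others of the family. The calls of Cd244a ended without WT2 (-1.16, adjusted p = 0.176), and those of Slamf7 without WT1, WT2 or KO1 (adjusted p up to 0.0686).

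Of the 5 other ITAM chains listed, 2 were called higher, against 6.7% of all genes tested, and 3 were not called. The B cell receptor chains Cd79a (1.78, SE 0.34, adjusted p = 0.0184 by limma) and Cd79b (1.60, SE 0.32, adjusted p = 0.0212) rose, and both calls ended without WT2 (adjusted p = 0.174 and 0.147). The chains of the T cell receptor were not called: Cd3g differed by -0.37 (95% interval -0.83 to 0.08), Cd3d by -0.14 (-0.52 to 0.24) and Cd3e by -0.00 (-0.39 to 0.38).

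Among genes that act next to Syk and Zap70, 26 of the 34 listed had a probe set, all were tested, 2 were called lower and 1 higher, and the median was -0.02. Over all genes tested, 2.78% were called lower and 6.7% higher, with a median of 0.11. Malt1, a protease of the pathway to NF-kB, fell (-1.0, SE 0.21, adjusted p = 0.0261 by limma), as did Vav3 (-0.88, adjusted p = 0.0295). Themis, a regulator of T cell receptor signalling in thymocytes, rose (1.04, adjusted p = 0.0498). Of 22 phosphatases, ligases and adaptors that restrain these signals, 3 were called lower and 0 higher, with a median of -0.18. These were Ubash3b, a phosphatase that acts on Syk family kinases (-1.68, SE 0.23, adjusted p = 0.00662), Ptpn6, which encodes SHP-1 (-0.91, adjusted p = 0.0218), and the adaptor gene Lax1 (-1.14, adjusted p = 0.0327). Of these 6 genes, Ubash3b kept its call whichever array was left out, whereas the others lost it without 3 to 7 of the arrays in turn: Malt1 without WT2, KO3 or KO4, Vav3 without WT1, WT2, WT3, WT5 or KO1, Ptpn6 without WT1, WT2, KO1 or KO3, Lax1 without any but WT2, KO2 or KO3, and Themis without any but WT2 or KO2 (adjusted p up to 0.277, 0.118, 0.102, 0.102 and 0.168).

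Since Fcer1g, Tyrobp, Fcgr3 and Syk are also genes of myeloid cells, and Syk of B cells, markers of other cell types are given beside them. The shares to set beside the counts of each marker list are 2.78% lower and 6.7% higher over all genes tested. Of 18 macrophage markers with a probe set, 15 were tested, 14 had a positive difference, 4 were called higher and 0 lower (median 1.17), and their summed level was 9.48 to 10.18 in wildtype and 11.05 to 11.83 in knockout arrays. The 4 called were Csf1r (4.05), Ly86 (1.87), Cd68 (1.54) and Lyz2 (1.77; adjusted p 0.00651 to 0.0248 by limma), while Cd14, Itgam and Vsig4 lay below the filter level. The value of Csf1r depends on the probe set: on the one with the highest wildtype mean it was 0.40 and not called (adjusted p = 0.249). The calls of Csf1r, without WT2 (3.18, adjusted p = 0.0682), and of Lyz2, without WT1 or KO1 (1.24, adjusted p = 0.0731), ended. Dendritic cell markers, of which H2-Ab1, H2-Aa, Cd74 and H2-Eb1 of 11 tested were called higher and 0 lower (median 0.62), summed to 11.43 to 11.92 in wildtype and 12.89 to 13.50 in knockout arrays. Only these 4 genes, all of MHC class II presentation, were called. Of the 11 differences 8 were positive and 3 negative, and 9 of the 13 genes with a probe set overlapped between the groups. B cell markers, with 2 of 10 called higher (Cd79a and Cd79b), summed to 9.78 to 10.32 and 10.52 to 11.55, and Pax5 and Ebf1, which define B cells, had differences of -0.17 and -0.05. The calls of H2-Aa and Cd74 ended without WT2 (adjusted p = 0.0572 and 0.0503) and that of H2-Eb1 without WT1 or KO1 (adjusted p = 0.0685). Granulocyte and mast cell markers overlapped (8.39 to 10.15 and 8.67 to 11.00), with 0 of 9 called by limma and 1 at an unadjusted p under 0.05.

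Of 13 double-positive thymocyte markers, 8 were called higher and 0 lower (median 1.04), with summed levels of 14.08 to 14.58 in wildtype and 15.03 to 15.62 in knockout arrays, KO2 being the lowest of the knockout arrays. Of those 8, Arpp21, Ptcra, Mns1, Aqp11 and Rag2 kept their call whichever array was left out, whereas Cd8b1, Cd8a and Themis lost it without 4 to 7 of the arrays in turn (adjusted p up to 0.0741, 0.118 and 0.168). Of 8 NK and innate lymphoid markers tested, 1 was called lower, Klrb1f (-1.96), and 0 higher, with 5 negative and 3 positive differences and sums of 13.72 to 13.88 against 13.31 to 13.61. Of 4 gamma-delta T cell markers 1 was called lower, Maf (-0.80), and the sums were 12.14 to 12.80 against 11.19 to 11.66. Of 12 iNKT markers, Cd44, Il2rb and Tbx21 were called lower and 0 higher, with sums of 15.38 to 15.47 and 14.97 to 15.16. Without WT2 the calls of Cd44 (-1.25, adjusted p = 0.118) and Il2rb (-1.38, adjusted p = 0.0540) ended. That of Il2rb held only without WT4 or KO2, and those of Tbx21 and Maf only without KO2. The part of any of these cell types in the differences of the 10 genes was not tested. In bulk RNA, fewer cells of a type and less RNA per cell cannot be told apart. Fcer1g, which macrophages express, was lower on the same 4 knockout arrays on which the summed macrophage markers were higher. The part of such cells in its level was not tested.

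**Figure D4:**
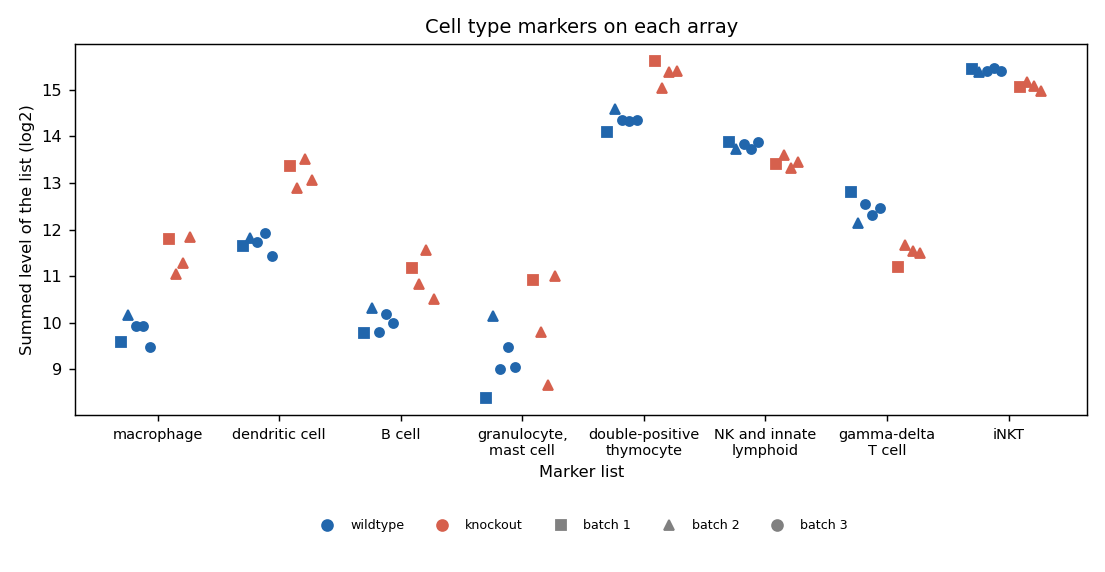
Log2 of the summed linear levels of each marker list (vertical axis) on each array, by list (horizontal axis), with wildtype in blue, knockout in red and the marker shape giving the batch. Macrophage sums are 9.48 to 10.18 in wildtype and 11.05 to 11.83 in knockout arrays, double-positive thymocyte sums 14.08 to 14.58 and 15.03 to 15.62, and granulocyte sums overlap.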

How the data were processed

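For every array the authors deposited log2 levels of its probe sets. RMA is the method that the submitters' processing notes name, with no version. Arrays give no read depth, and their number limits the precision. Interquartile ranges of the arrays were 3.45 to 4.29. Deviations from the genotype mean nearly cancelled within each batch (median size of their mean 0.01 to 0.03, of single arrays 0.14 to 0.17), and those of WT1 and KO1 correlated at -0.91 across probe sets. The sources used here do not say whether the authors adjusted for batch.

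Gene symbols came from the annotation of the array (34945 with 1 gene, 932 with several, 9160 with none, 64 controls left out), and all member identifiers matched the RefSeq gene table. Probe sets whose mean exceeded the 25th percentile were tested with limma 3.58.1 in R 4.3.3 (lmFit and eBayes, genotype and batch, two-sided, Benjamini-Hochberg, 5 residual and 3.83 prior degrees of freedom). Nothing says that samples came from separate animals beyond the label of biological replicate, so p-values measure the spread between these samples. No 2 arrays of a group were alike (smallest SD of the difference 0.30). The fit was tested on simulated arrays with 200 changed probe sets among 33789. It recovered 0% of 1.5-fold, 28.4% of 2-fold and 74.2% of 4-fold changes, and 5 of its 73 calls were false. A member without a call may therefore still differ between the genotypes.

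The members and lists were chosen with earlier results of these data known. Named are all members, Kdm6a, up to 4 genes of smallest p per list, genes that define a cell type and the 3 genes nearest to each called member. Chosen after their values were seen were Slamf7, Pvr, Rag2, Cd8a, Cd8b1, Themis among the thymocyte markers and the test between batches. Alternatives covered the batch term, replicate block, batches used, filter, scaling, choice of probe set, eBayes settings, array weights, threshold and leaving out each array.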

Additional observations from a re-analysis of the deposited data

How the results depend on the processing

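The main counts were 1 member gene lower, 1 higher, 4 member probe sets called and 2872 probe sets called in all. With each of the 9 arrays left out, these were 1 to 2, 0 to 1, 2 to 4 and 1387 to 4012. With no batch term they were 4 lower, 1 higher, 9 and 13851, and with batch as a random block 5, 3, 13 and 22730. Deviations from the genotype means nearly cancel within each batch of the deposited table, so fits without batch as a fixed term may understate the spread, and these larger counts support nothing. The replicate numbers of the titles were not taken as pairs, and the titles do not say that equal numbers mark pairs. The deviations of arrays numbered 2, 3 and 4 correlated at 0.08, -0.01 and 0.13 with those of the same number. The first pair, a whole batch, gave -0.91. As deviations nearly cancel within each batch, none of these values can decide whether the numbers mark pairs. The fit with the replicate block, which also lacks the batch term, gave 3, 1, 8 and 9078. Without the 3 wildtype arrays of batch 3 there were 1 lower, 0 higher, 1 and 628. Batch 2 alone gave 0, 0, 0 and 0 by limma, with 8802 probe sets at an unadjusted p under 0.05. Another quantile normalization gave 2 lower, eBayes with trend and robust 2 lower, and array weights 0 higher, 1 and 742. At an adjusted p of 0.01 there were 0 higher, 1 and 445, and at 0.10 there were 3 lower and 6082 in all. A fit with 1 probe set per gene called 1634.

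Differences that turned sign were those of Zap70 in batch 2 alone and without WT1 or KO1 (0.22 on the leading probe set, 0.27 on 1439749_at), of Fcgr3 without WT2 (0.22) and of the Cd247 probe set 1452539_a_at without WT2 (0.18) or KO3 (0.03). Over the fits with 1 array left out, these differences ranged from -0.62, -1.06, -0.71 and -0.22 to 0.22, 0.27, 0.22 and 0.18 in the same order. None of these was called. The causes of these changes and of the changed counts were not tested. Fcer1g lost its call in batch 2 alone (-1.81, adjusted p = 0.0589), and Syk there (0.86, adjusted p = 0.116) and with array weights (1.28, adjusted p = 0.0640). After another quantile normalization 0 of the 48 genes refitted, the 9 members tested among them, changed sign. Higher calls made up 62.7% of all calls, and 52.7% after another quantile normalization, where the median of all probe sets went from 0.06 to -0.01.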
